A study of Mus musculus with 10 samples.

Results

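The receptors for free fatty acids and lipid amides are a small set of G protein-coupled receptors, chosen here by gene symbol as Ffar1, Ffar2, Ffar3, Ffar4, Gpr119 and Gpr84. All 6 listed genes were found among the 19938 genes tested, each measured by 1 probe set that is annotated to that gene alone. They were compared in isolated islets of Langerhans, the endocrine tissue of the pancreas, from NZO/Hl mice (NZO, 5 arrays) and C3HeB/FeJ mice (C3H, 5 arrays). NZO is an inbred strain prone to obesity and diabetes, and C3H is the inbred strain set against it. All mice were males, were weaned at day 21 onto a high-fat diet (45% of calories as fat) and were killed at 6 weeks. RNA was taken after a night of islet culture at 10 mM glucose. No group without the high-fat diet was analysed here, so the diet is shared by every sample. The study looked for strain-specific candidate genes in an interval of 30 to 46 Mb, and the labels name no chromosome for it. It is taken here, from outside knowledge of the study, as chromosome 7, where Ffar1, Ffar2 and Ffar3 start inside these bounds. Every array title carries its own numbers, mostly a pair, which read as animal numbers. The exceptions are NZO replicate 4, with a single number, and NZO replicate 5, with a range. Each array would then hold different mice, and most would be pools, but the labels do not say what the numbers stand for.

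These receptors let cells sense fats outside the cell. FFAR1 binds long-chain fatty acids and signals through Gq proteins to phospholipase C and calcium, and in beta cells it raises insulin secretion when glucose is high. FFAR2 and FFAR3 bind short-chain fatty acids such as acetate and propionate, and FFAR3 signals through Gi proteins while FFAR2 can use Gi or Gq. FFAR4 binds long-chain fatty acids and is found in mouse islets mainly in the somatostatin-secreting delta cells. GPR119 binds lipid amides such as oleoylethanolamide and raises cyclic AMP through Gs. GPR84 binds medium-chain fatty acids and is best known from macrophages and neutrophils.

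The deposited values are log2 expression values from robust multi-array averaging (RMA), 1 per probe set and array. They carry no detection call, so brightness is given here by rank among the genes tested, as a property of the probe set and not as an amount of RNA. The median gene lay at 7.46 to 7.55 and the 25th percentile at 6.17 to 6.45 across the 10 arrays. The islet hormone genes were bright in both strains, with Ins2 at 12.45 ± 0.15 in NZO and 12.33 ± 0.07 in C3H and Gcg at 13.21 ± 0.12 in NZO and 13.25 ± 0.06 in C3H (SD, n = 5 each). The acinar score, the mean log2 level of 21 measured acinar genes, was 9.92 to 10.58 on NZO replicates 1 to 3, 12.04 and 11.90 on NZO replicates 4 and 5, and 8.08 to 9.0 on the C3H arrays. Digestive enzyme transcripts of the exocrine pancreas thus moved with strain, and the receptor values are given below with and without NZO replicates 4 and 5. In whole islets, fewer cells of a type and less RNA per cell cannot be told apart.

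The transcripts of 3 receptors were lower in NZO islets. Ffar2, Ffar3 and Ffar4 fell by 0.60 to 0.69 log2 units, about 1.52-fold to 1.61-fold, and for each of them every NZO array lay below every C3H array. Ffar1, Gpr119 and Gpr84 did not pass the test and differed by no more than 0.05 log2 units. Differences are NZO minus C3H from limma with Benjamini-Hochberg adjustment over all 19938 genes and a threshold of 0.05, at which 3 of the 6 receptors passed, all lower. Over all genes, 4.61% were called lower and 5.47% higher, 10.1% in either direction. The strains did not overlap in 3 of 6 receptors, all lower, where 9.14% of all genes had strains that did not overlap and 4.18% did so with NZO lower. The median difference of the receptors was -0.33, against -0.02 over all genes.

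**Figure D1:**
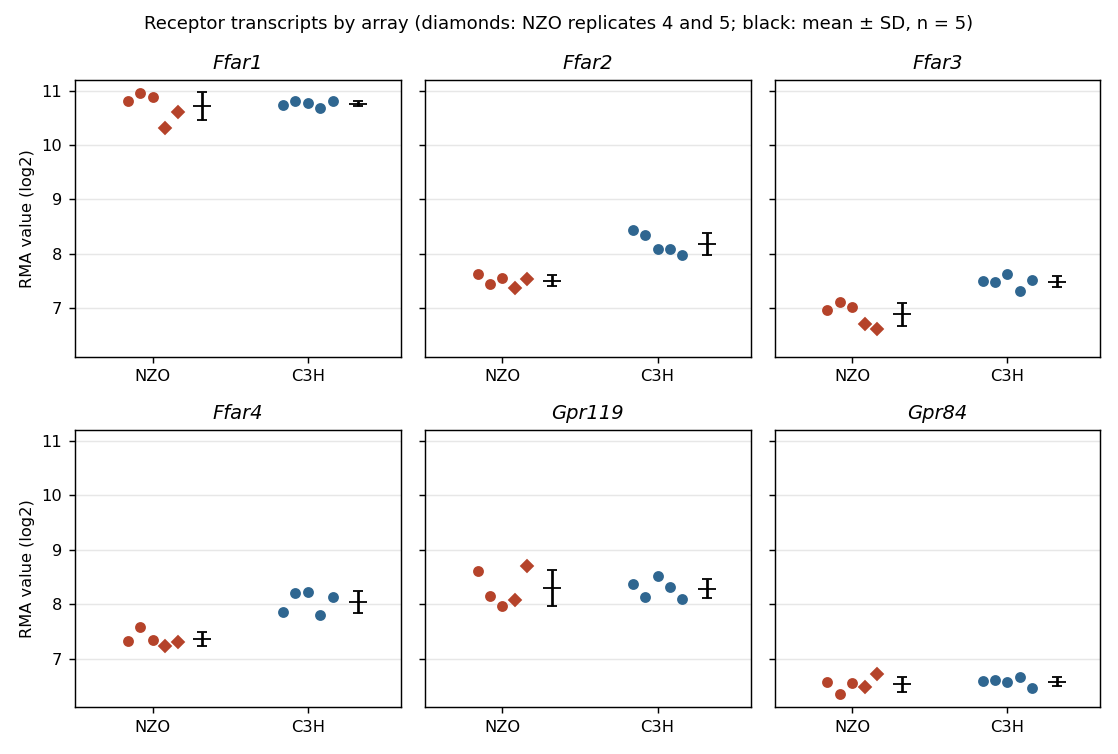
RMA log2 values of the 6 receptor genes on each of the 5 NZO and 5 C3H arrays, with diamonds for NZO replicates 4 and 5 and the mean ± SD in black. The NZO points of Ffar2, Ffar3 and Ffar4 all lie below the C3H points, whereas those of Ffar1, Gpr119 and Gpr84 overlap with them.

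Among the receptors for short-chain fatty acids, Ffar2 (probe set 10562117, GRCm38.p6 chr7:30818031-30823775) had values of 7.62, 7.45, 7.56, 7.38 and 7.53 on the NZO arrays, against 8.44, 8.35, 8.09, 8.08 and 7.97 on the C3H arrays. The NZO values lay close together, and the highest of them was below the lowest C3H value. The difference was -0.68 (SE 0.10, 95% interval -0.88 to -0.47, limma adjusted p = 0.000367), or 1.6-fold lower. The probe set ranked at the 55.6th percentile of genes by mean brightness, and 2 of 5 NZO arrays and 5 of 5 C3H arrays were above the median gene of their array.

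Ffar3 (probe set 10562125, chr7:30854330-30856178) had values of 6.97, 7.11, 7.03, 6.71 and 6.62 on the NZO arrays, against 7.50, 7.48, 7.63, 7.33 and 7.53 on the C3H arrays. NZO replicates 4 and 5 were the lowest of all 10 arrays. Its difference was -0.60 (SE 0.10, 95% interval -0.82 to -0.39, limma adjusted p = 0.00124). The probe set was dim, at the 44.3th percentile, and no NZO array was above the median gene, against 3 of 5 C3H arrays. RMA compresses differences of dim probe sets, so a fold read from it may be too small.

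Ffar4, the receptor for long-chain fatty acids on another chromosome (probe set 10462881, chr19:38097079-38114263), had values of 7.32, 7.57, 7.35, 7.23 and 7.30 on the NZO arrays, against 7.85, 8.20, 8.22, 7.80 and 8.14 on the C3H arrays. Its difference was -0.69 (SE 0.10, 95% interval -0.90 to -0.47, limma adjusted p = 0.000508), or 1.61-fold lower. Within NZO, replicates 4 and 5 were the lowest. Other transcripts of delta and PP cells were also lower in NZO. Somatostatin (Sst), the delta cell hormone, was 13.12 ± 0.26 in NZO and 13.87 ± 0.04 in C3H (SD, n = 5 each), a difference of -0.75 (SE 0.11). Of 7 measured delta and PP cell markers, 6 were lower, where 4.61% of all genes were called lower. The mean level of the 7 was 8.93 to 9.16 on the NZO arrays and 9.53 to 9.83 on the C3H arrays. Without NZO replicates 4 and 5, 5 of the 7 passed, where 5.54% of all genes were called. With the acinar score in the model 1 did, where 1.04% of all genes were called, and Sst was -0.31 (SE 0.19) and did not pass. Rbp4, another gene of this list, lies close to Ffar4 (chr19:38116620-38125321) and was 2.45-fold lower (-1.29, SE 0.11, limma adjusted p = 4.39e-06). With the acinar score in the model Rbp4 was -0.80 (SE 0.20) and did not pass. The part of these cells, or of this position on the chromosome, in the Ffar4 difference was not tested.

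The promoters of the genes that fell are printed here because they are the sequences next to which the transcripts differ. Each is the 250 bases before the outermost annotated start, 5′ to 3′ on the gene's strand, from RefSeq on GRCm38.p6, and capitals mark matches to the motifs searched. The windows are chr7:30823776-30824025 (minus strand) for Ffar2, chr7:30856179-30856428 (minus strand) for Ffar3 and chr19:38096829-38097078 (plus strand) for Ffar4. They are reference sequence and show no difference between the strains.
Ffar2: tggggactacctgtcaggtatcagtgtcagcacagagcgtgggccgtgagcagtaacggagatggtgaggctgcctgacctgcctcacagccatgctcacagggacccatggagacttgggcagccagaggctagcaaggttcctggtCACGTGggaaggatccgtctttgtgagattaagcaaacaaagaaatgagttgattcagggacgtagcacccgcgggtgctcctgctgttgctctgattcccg
Ffar3: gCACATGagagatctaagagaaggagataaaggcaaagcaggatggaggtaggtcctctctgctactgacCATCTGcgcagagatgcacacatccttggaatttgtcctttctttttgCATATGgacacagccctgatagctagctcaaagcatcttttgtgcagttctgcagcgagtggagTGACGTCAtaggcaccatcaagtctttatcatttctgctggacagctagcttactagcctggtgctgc
Ffar4: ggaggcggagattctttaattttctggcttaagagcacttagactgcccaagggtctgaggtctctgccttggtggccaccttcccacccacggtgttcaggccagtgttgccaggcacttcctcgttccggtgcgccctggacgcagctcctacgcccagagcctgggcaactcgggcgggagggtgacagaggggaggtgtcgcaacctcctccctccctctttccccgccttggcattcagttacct
On both strands, the E-box CANNTG was found 1 time in the Ffar2 window, 3 times in the Ffar3 window and not in the Ffar4 window, where 66.1% of 27025 promoter windows of this length hold it. The Ffar3 window also held 1 cyclic AMP response element, TGACGTCA, a motif in 1.6% of all windows that was added to the search after the sequence had been read. The TATA box TATAAA, the homeodomain core TAATTA and the direct repeat bound by PPAR and RXR receptors had no match in these 3 windows, where 13.0%, 4.91% and 0.037% of all windows hold them. No match overlapped with a match to another motif.

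Ffar1, the beta cell receptor for long-chain fatty acids (probe set 10562130, chr7:30860568-30861470), was the brightest probe set of the set, at the 95.5th percentile. It had values of 10.81, 10.95, 10.88, 10.31 and 10.61 on the NZO arrays, against 10.73, 10.80, 10.77, 10.69 and 10.81 on the C3H arrays. NZO replicates 4 and 5 were the lowest of all arrays, NZO replicates 2 and 3 were above every C3H array, and NZO replicate 1 lay within the C3H range. The NZO arrays spanned 0.64 log2 units and the C3H arrays 0.12. The difference was -0.05 (SE 0.11, 95% interval -0.28 to 0.18, limma adjusted p = 0.868), and that interval does not reach the size seen in Ffar2, Ffar3 or Ffar4. Without NZO replicates 4 and 5 the value turned to 0.12 (SE 0.08, limma adjusted p = 0.659).

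Gpr119, the Gs-coupled lipid amide receptor (probe set 10604447, chrX:48667979-48674478), had values of 8.61, 8.16, 7.96, 8.08 and 8.69 on the NZO arrays, against 8.37, 8.13, 8.51, 8.32 and 8.09 on the C3H arrays. Its NZO arrays spanned 0.74 log2 units, the widest range of the 6 receptors, and held both the highest and the lowest value of all arrays. The difference was 0.02 (SE 0.14, 95% interval -0.28 to 0.32, limma adjusted p = 0.976).

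Gpr84, the receptor for medium-chain fatty acids of myeloid cells (probe set 10433101, chr15:103308233-103310670), was the dimmest, at the 31.3th percentile. It had values of 6.58, 6.34, 6.54, 6.47 and 6.71 on the NZO arrays, against 6.58, 6.61, 6.58, 6.66 and 6.45 on the C3H arrays. None of the 10 arrays was above its median gene, and the difference was -0.05 (SE 0.08, 95% interval -0.22 to 0.12, limma adjusted p = 0.825). At this brightness a level above background was not shown. Of 16 macrophage markers, 6 were higher in NZO and 1, the fractalkine receptor Cx3cr1, was lower (median 0.64). Over all genes, 5.47% were called higher and 4.61% lower. Without NZO replicates 4 and 5, 2 of the 16 macrophage markers passed (median 0.28), where 5.54% of all genes were called. With the acinar score in the model none did in limma (median -0.43), where 1.04% of all genes were called. The mean level of the 16 macrophage markers was 7.34 to 8.34 on the NZO arrays and 7.31 to 7.42 on the C3H arrays. Of 8 neutrophil markers none passed limma, with means of 5.68 to 5.88 in NZO and 5.71 to 6.08 in C3H, below the 25th percentile of genes.

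**Figure D2:**
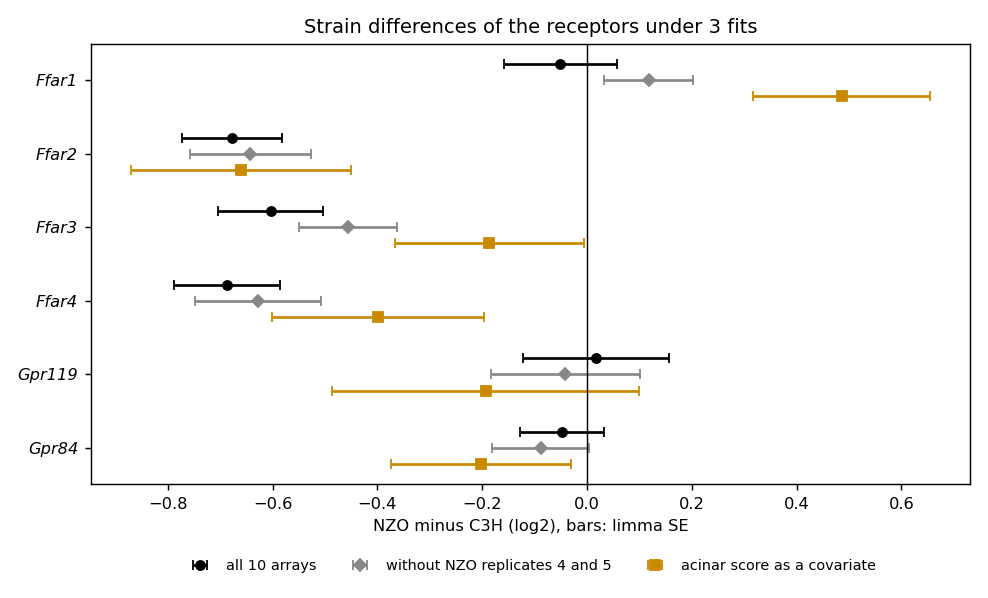
Strain differences (NZO minus C3H, log2) of the 6 receptors with the limma SE, fitted on all 10 arrays, without NZO replicates 4 and 5, and with the acinar score as a covariate. Ffar2 is -0.68, -0.64 and -0.66 in these fits, and with the covariate Ffar3 is -0.19 and Ffar1 0.49.

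Leaving out NZO replicates 4 and 5 kept all 3 calls, with differences of -0.64 for Ffar2, -0.46 for Ffar3 and -0.63 for Ffar4 (limma adjusted p = 0.00415, 0.00947 and 0.00628), where 5.54% of all genes were called. With the acinar score in the model none of the 6 receptors passed, where 1.04% of all genes were called, against 10.1% without it. The score differs between the strains, and adding it raised the SE of the 6 receptors by a factor of 1.57 to 2.18. With it, Ffar2 was -0.66 (SE 0.21, limma adjusted p = 0.263), Ffar4 was -0.40 (SE 0.20) and Ffar3 was -0.19 (SE 0.18). Ffar1 was 0.49 (SE 0.17, limma adjusted p = 0.352). Beta cell markers also moved with that score. The mean level of 9 beta cell genes was 10.37 and 10.58 on NZO replicates 4 and 5, 10.78 to 11.31 on NZO replicates 1 to 3 and 11.18 to 11.37 in C3H. The part of tissue composition in the receptor differences was not tested further.

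**Figure D3:**
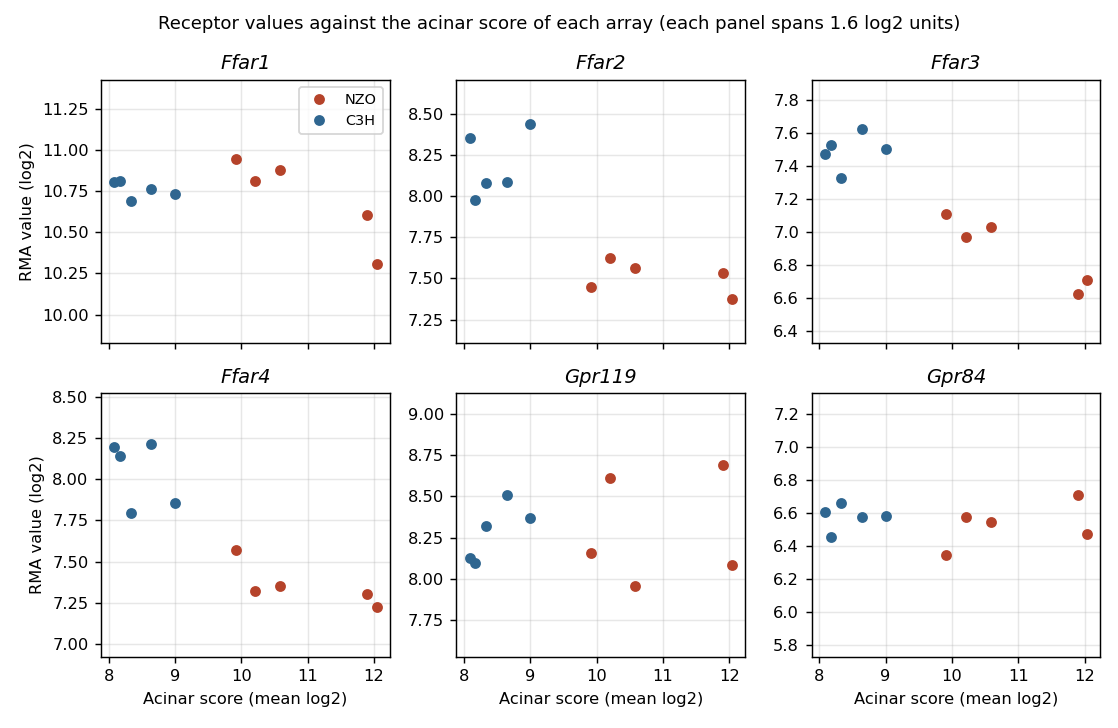
RMA log2 value of each receptor against the acinar score of the same array, with NZO arrays in red and C3H arrays in blue. The arrays of the strains do not overlap on the horizontal axis, and within NZO the values of Ffar1, Ffar3 and Ffar4 are lowest on the arrays with scores of 12.04 and 11.90.

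Ffar1, Ffar3 and Ffar2 lie side by side within 43.4 kb, so their difference within each array is described. The pairs were chosen after their values had been seen, so no p-value is given for them. Ffar2 minus Ffar1 was -3.20 ± 0.22 in NZO and -2.57 ± 0.21 in C3H (SD, n = 5 each), a strain difference of -0.63 (SE 0.14). Ffar3 minus Ffar1 was -3.82 ± 0.14 in NZO and -3.27 ± 0.09 in C3H (SD, n = 5 each), a strain difference of -0.55 (SE 0.07). In both pairs the NZO and C3H arrays did not overlap. That was already so for Ffar2 and Ffar3 alone, and for 9.14% of all genes, so it largely restates their calls. Ffar2 minus Ffar3 was 0.62 ± 0.21 in NZO and 0.69 ± 0.23 in C3H, a strain difference of -0.07 (SE 0.14). Ffar1 is far brighter than the other genes of the block, and RMA does not keep differences of bright and dim probe sets on 1 scale.

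Most genes around the block showed no called difference between the strains. Of the 5 tested genes on each side, 9 did not pass, with differences of -0.13 to 0.13, and 1 was lower. That gene was Tmem147, which encodes a membrane protein of the endoplasmic reticulum, at 10.23 ± 0.19 in NZO and 10.81 ± 0.08 in C3H (SD, n = 5 each), a difference of -0.58 (SE 0.09, limma adjusted p = 0.000871). Between Tmem147 and Ffar2 lie Gapdhs (0.05), Sbsn (-0.13), Dmkn (-0.03) and Krtdap (-0.03). The B cell gene Cd22 (-0.04), next to Ffar1, the myelin gene Mag (0.01), the hepcidin genes Hamp2 (-0.13) and Hamp (0.13) and the transcription factor gene Usf2 (-0.03) follow on the other side. Sbsn, Dmkn, Krtdap, Cd22, Mag and Gapdhs were dim, at the 31.5th percentile or below. Hamp lay at the 41.8th percentile and Hamp2 at the 50.2th. A difference could be hidden in any of these genes. Of the 255 tested genes that start at 30 to 46 Mb of chromosome 7, 19 (7.45%) were lower and 13 (5.1%) higher, or 12.5% called, against 10.1% of all genes. Sequence differences between the strains under the probes of these genes were not tested.

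**Figure D4:**
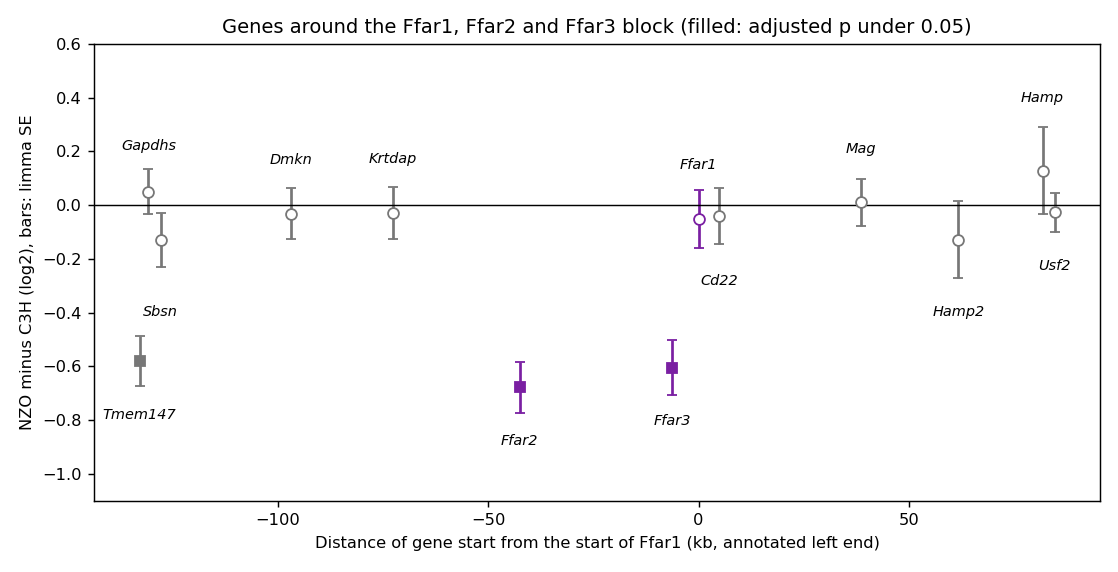
Strain difference (NZO minus C3H, log2, with the limma SE) of Ffar1, Ffar2 and Ffar3, in purple, and of the 5 tested genes on each side, in grey, by distance from Ffar1. Ffar2, Ffar3 and Tmem147 are filled as called lower, and the other 10 genes lie between -0.13 and 0.13.

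Of 43 measured genes in 4 lists of proteins that carry or end receptor signals inside the cell, 8 passed (18.6%, against 10.1% of all genes), and 2 did without NZO replicates 4 and 5 (4.65%, against 5.54% of all genes). The mean level of each of these lists was above the median gene. In a fit of only the genes brighter than the median gene, 17.2% were called, which is near the share of these lists. Of 5 Gi arm genes, Gnai1, a Gi alpha subunit through which FFAR3 and FFAR2 can act, was lower (8.21 ± 0.12 in NZO and 8.73 ± 0.10 in C3H, difference -0.52, SE 0.08, limma adjusted p = 0.000777). The other 4 genes of the list, Gnai2 (-0.08), Gnai3 (-0.09), Gnao1 (-0.28) and Gnaz (-0.33), were brighter and did not pass. Of 17 Gq arm genes, the calcium release channel Itpr2 (0.41, SE 0.09) and the Gq family subunit Gna14 (0.80, SE 0.19) were higher, and the kinase Prkd1 was lower (-0.42, SE 0.12). All of these Gq calls ended without NZO replicates 4 and 5. Of 15 Gs and cyclic AMP arm genes, the protein kinase A regulatory subunits Prkar1a (-0.60, SE 0.08, limma adjusted p = 0.000175) and Prkar1b (-0.34, SE 0.09) were lower, and only Prkar1a of these kept its call without those arrays (-0.54). Of 6 desensitisation genes, the arrestin Arrb1 was higher (0.39, SE 0.10) and the receptor kinase Grk5 lower (-0.36, SE 0.10), and neither passed without those arrays. The list medians were -0.28 for the Gi, -0.02 for the Gq, -0.01 for the Gs and -0.01 for the desensitisation genes.

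Of 8 genes of lipid amide synthesis and breakdown, 1 passed (12.5%, against 10.1% of all genes), and the list median was 0.07. That gene, Napepld, encodes the phospholipase that makes oleoylethanolamide and related amides, which GPR119 binds. It had values of 10.55, 10.24, 10.05, 10.37 and 10.12 on the NZO arrays, against 9.17, 9.34, 9.26, 8.98 and 9.14 on the C3H arrays. Every NZO array was above every C3H array, and the gene was 2.13-fold higher (1.09, SE 0.10, limma adjusted p = 8.32e-06). In the fit that included the acinar score it was 1.17 (SE 0.22) and the 1 pathway gene that still passed. The other 7 genes of the list did not pass, among them the amide hydrolases Faah (-0.11, SE 0.08) and Naaa (0.09, SE 0.07). Of 13 fatty acid release genes, 3 passed (23.1%, against 10.1% of all genes). Lipoprotein lipase Lpl was lower (9.80 ± 0.24 in NZO and 10.55 ± 0.15 in C3H, difference -0.75, SE 0.11). With the acinar covariate Lpl was -0.21 (SE 0.18) and did not pass. The lipid droplet gene Pnpla3 (0.37, SE 0.07) and the cytosolic phospholipase Pla2g4a (1.02, SE 0.29) were higher. Pla2g4a was 0.55 and did not pass without NZO replicates 4 and 5, and it turned to -0.49 with the acinar covariate.

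Among 26 other receptors and carriers for lipids and metabolites, 2 were lower and 2 higher (15.4% called, against 10.1% of all genes). The lactate receptor Hcar1 had values of 7.21, 7.46, 7.31, 7.32 and 7.15 on the NZO arrays, against 8.13, 7.86, 8.27, 7.82 and 8.09 on the C3H arrays. Its difference was -0.74 (SE 0.10, limma adjusted p = 0.00018), close in size to those of Ffar2 and Ffar4, and it stayed at -0.71 (SE 0.21) with the acinar covariate, where it did not pass. The cannabinoid receptor Cnr1, named after its value was seen, was lower by a smaller amount (-0.25, SE 0.07) from a dim probe set, a call that ended without NZO replicates 4 and 5 (-0.23, limma adjusted p = 0.195). The fatty acid translocase Cd36 was 3.43-fold higher (8.72 ± 0.84 in NZO and 6.94 ± 0.31 in C3H, difference 1.78, SE 0.31). It was highest on NZO replicates 4 (9.70) and 5 (9.25), and its difference was 0.06 (SE 0.40) with the acinar covariate. The prostaglandin receptor Ptger4 was also higher (0.55, SE 0.11) and turned to -0.04 with the covariate. Of 9 hormone and incretin receptor genes, 3 passed (33.3%, against 10.1% of all genes). Sst, the PP cell hormone Ppy (-0.41, SE 0.08) and Gipr, a receptor for the incretin GIP (-0.44, SE 0.10), were lower. The GLP-1 receptor gene Glp1r (0.04, SE 0.07) did not pass. Gipr was -0.31 (limma adjusted p = 0.0932) without NZO replicates 4 and 5 and no longer passed. Over all 8 lists, 8 of 99 measured genes were higher and 11 lower, or 19.2% called, against 10.1% of all genes. In the fit of only the genes brighter than the median gene, 17.2% of genes were called. That share is not matched in brightness to all 8 lists. The 26 other receptors and carriers had mean levels of 6.97 to 7.29 in NZO and 6.94 to 7.08 in C3H, below the median gene.

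**Figure D5:**
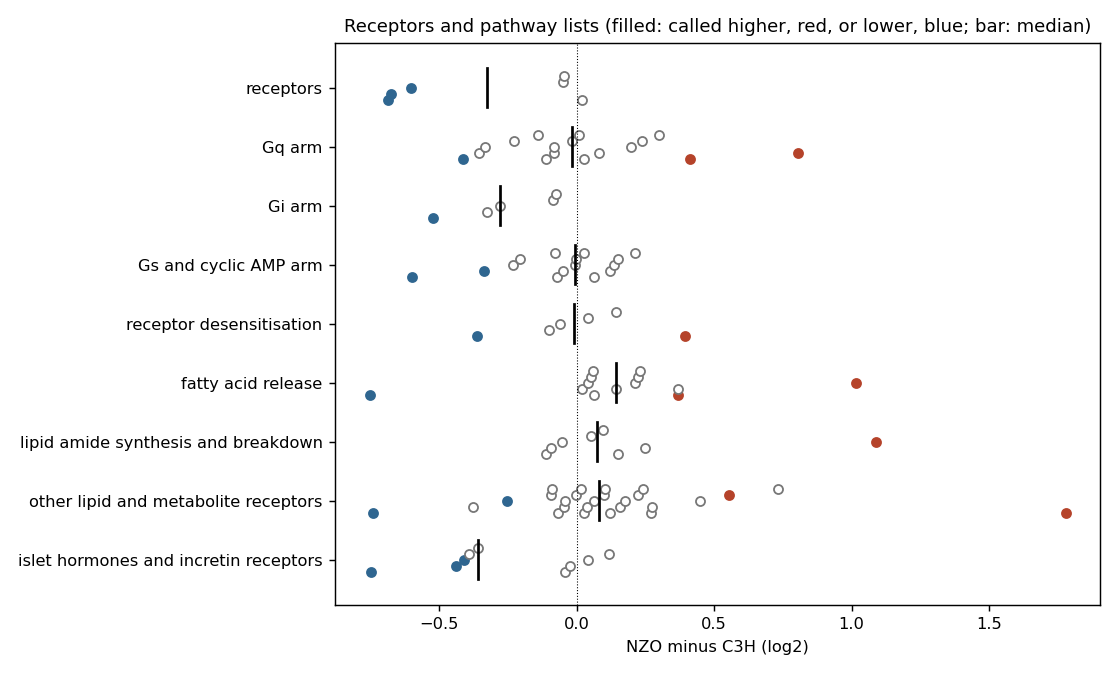
Strain differences (NZO minus C3H, log2) of the 6 receptors and of the genes of 8 pathway lists, 1 point per gene, filled red where called higher and blue where called lower, with the list median as a bar. The receptors have 3 called genes, all lower, and the highest points are Cd36 at 1.78 and Napepld at 1.09.

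The genes whose course over the 10 arrays was most like that of each receptor that fell were found by the root mean square distance after each gene was centred on its own mean, among 9675 or 9676 genes brighter than the median gene. Nearest to Ffar2 were the sterol synthesis gene Nsdhl (distance 0.11 log2 units), the imprinted gene Ndn (0.13) and Btbd9 (0.13). Nearest to Ffar3 were the methionine adenosyltransferase gene Mat1a (0.05), Churc1 (0.06) and the endophilin gene Sh3gl2 (0.08). Nearest to Ffar4 were the bestrophin gene Best3 (0.06), Ppp1r9a (0.08) and the peroxisomal carrier gene Slc25a17 (0.11). These genes were 0.51 to 0.78 lower in NZO, as their choice requires. Among the receptors themselves, Ffar3 and Ffar4 were closest (0.13), although they lie on different chromosomes. Ffar2 was 0.20 from its neighbour Ffar3 and 0.22 from Ffar4.

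Markers of other cells that islet preparations can hold are given here as measured values. Over all genes, 5.47% were called higher and 4.61% lower. All 21 acinar genes were higher in NZO (median 2.21), among them the trypsinogens Prss3 (5.72, SE 0.62) and Try4 (3.94, SE 0.45). The duct list had 2 of 5 genes higher, Muc1 (1.58, SE 0.28) and Krt19 (1.55, SE 0.24), and its means were 8.27 to 9.35 in NZO and 7.92 to 8.09 in C3H. Of 9 beta cell genes, 3 were lower, among them Slc30a8 (-1.1, SE 0.16) and Ucn3 (-1.12, SE 0.19), and of 5 alpha cell genes Slc7a2 (-0.57, SE 0.12) and Irx1 (-0.36, SE 0.10) were lower. Neither alpha cell call held without NZO replicates 4 and 5 (-0.39 and -0.40, limma adjusted p = 0.0544 and 0.0818). With the acinar covariate none of these beta and alpha cell genes passed (Slc30a8 -0.18, Ucn3 -0.09, Slc7a2 -0.01 and Irx1 -0.36). The macrophage genes Fcer1g (0.67, SE 0.14) and Csf1r (0.76, SE 0.17) were higher. Of 8 endothelial genes only Emcn (0.51, SE 0.08) passed, and of 7 stellate and fibroblast genes only Pdgfra (1.25, SE 0.25) did, both higher. None of the 6 adipocyte markers, a cell type that carries FFAR2 and FFAR4, passed limma, and their means were 6.69 to 6.81 in NZO and 6.71 to 7.0 in C3H. None of 7 lymphocyte markers passed either, with means of 5.97 to 6.18 in NZO and 5.95 to 6.46 in C3H.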

How the data were processed

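Islet RNA of 10 samples, 5 per strain, was measured on a whole-transcript Affymetrix mouse array (150 ng of RNA per array with an integrity number above 8, per the labels' protocols). The authors deposited log2 values, and the submitters' processing notes name RMA and the Affymetrix Expression Console. The genome build is not given in the sources used here. Of 35556 probe sets, 21789 carried exactly 1 gene symbol in the platform annotation, 1621 several, and 12146 are not named here. Of the first, 21698 matched GRCm38.p6 by Entrez ID. The brightest probe set per gene was kept, with no filter on dim genes.

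Groups followed the strain label. Replicates were numbered by accession and are not paired. Strain differences came from limma 3.58.1 (lmFit, then eBayes) run in R 4.3.3, tested on simulated data with 19938 genes, of which 74% of those changed by 0.5 log2 units and 100% of those changed by 1 to 3 were recovered with 9 false calls. The SE of a pair difference is from the strain variances, and other SEs are limma's. With arrays, the number of samples limits the precision.

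Named genes are the 6 receptors, up to 3 called genes per pathway list and 2 per marker list with the smallest p, the 5 genes on each side of the block, Ins2, Gcg and Sst, and 3 like genes per called receptor. Cnr1, Cx3cr1 and the list genes given as not passing fall outside this rule and were chosen after their values were seen. Members, lists and tests were chosen with earlier results of these data known. Alternatives were brightness filters, array centring, eBayes with trend and robust, all probe sets of a gene averaged, the acinar score as a covariate, and arrays left out. Of the 107 pathway genes, 99 were measured.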

Additional observations from a re-analysis of the deposited data

Results flagged for a closer look

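None of the 6 receptors had an array that stood apart from the other 4 of its strain by Dixon's test at its 95% critical value. Of 118 groups of 5 arrays tested over 59 named genes, 6 did, where chance gives about 5%. Arrb1 was 7.80 on NZO replicate 2, against 8.17 to 8.32 on the other NZO arrays. Sbsn was 6.53 on NZO replicate 2, against 6.27 to 6.32. Cd22 was 6.29 on NZO replicate 1, against 6.55 to 6.63. On C3H replicate 4, Dmkn was 6.90 against 6.40 to 6.54 on the other C3H arrays, Cd22 was 6.95 against 6.45 to 6.54, and Hamp2 was 8.23 against 7.32 to 7.56. The genes Sbsn, Dmkn, Cd22 and Hamp2 lie beside the Ffar1, Ffar2 and Ffar3 block. C3H replicate 4 was also high for dim genes across the whole array. Its 25th percentile of all genes was 6.45, against 6.17 to 6.29 on the other arrays, and its lymphocyte marker mean of 6.46 was the highest. The part of this shift in the flags on that array was not tested.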

How the results depend on the processing

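The calls of Ffar2, Ffar3 and Ffar4 held in every alternative that could test them except the acinar covariate, where 0 of 6 receptors passed (Ffar2 -0.66, Ffar3 -0.19, Ffar4 -0.40). Ffar3 and Gpr84 are dimmer than the median gene and have no value under that filter. With single arrays left out, the differences were -0.73 to -0.61 for Ffar2, -0.66 to -0.54 for Ffar3, -0.75 to -0.64 for Ffar4, -0.11 to 0.050 for Ffar1, -0.081 to 0.10 for Gpr119 and -0.093 to -0.0017 for Gpr84, and 3 receptors passed each time, with 7.23% to 13.5% of all genes called. Ffar1 turned positive with the acinar covariate (0.49) and without NZO replicates 4 and 5 (0.12), and Gpr119 turned negative with the covariate (-0.19), without those arrays (-0.041) and with centring (-0.011). The pair differences were -0.69 to -0.55 for Ffar2 minus Ffar1, -0.61 to -0.51 for Ffar3 minus Ffar1 and -0.15 to -0.0028 for Ffar2 minus Ffar3 with single arrays left out. The 2010 genes called became 207 with the covariate, 1105 without NZO replicates 4 and 5, and 1441 to 2701 with single arrays left out. The 19 pathway calls became 1, 10 and 13 to 26, and the 32 calls at 30 to 46 Mb became 4, 18 and 24 to 42. The cause was not tested.

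With the acinar covariate, signs also turned for Gna14 (-0.081), Prkd1 (0.018), Grk5 (0.059), Pla2g4a (-0.49), Ptger4 (-0.040), Muc1 (-0.21), Fcer1g (-0.048), Csf1r (-0.23), Pdgfra (-0.082), Sbsn (0.049), Dmkn (0.048), Hamp (-0.11) and Usf2 (0.16), none of them past the threshold. Usf2 was 0.020 without NZO replicates 4 and 5, and Mag -0.017 with centring. With single arrays left out, values near 0 ranged over both signs for Dmkn (-0.070 to 0.055), Krtdap (-0.086 to 0.035), Cd22 (-0.075 to 0.050), Mag (-0.028 to 0.063), Hamp2 (-0.19 to 0.034), Hamp (-0.0032 to 0.25) and Gcg (-0.067 to 0.0044). Without NZO replicates 4 and 5, 12 of 42 other named calls ended. With the acinar covariate 41 of the 42 ended, and only Napepld kept its call. Leaving out some single arrays ended the calls of Prkd1, Prkar1b, Arrb1, Grk5, Pla2g4a, Irx1 and Cnr1 (limma adjusted p up to 0.115). No paired analysis was possible because the labels give no replicate numbers that the strains share. No value could be shown to be above background without a detection call.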
